A study of Homo sapiens with 8 samples.

Results

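The mRNA levels of 9 enzymes of serine synthesis and folate-dependent carbon transfer were followed in 8 mRNA-seq libraries of HCT116, a human colorectal cancer cell line. The 9 were chosen by symbol, as rows of the deposited tables named PHGDH, PSAT1, PSPH, SHMT1, SHMT2, MTHFD1, MTHFD1L, MTHFD2 and ALDH1L2. They are 9 of 42125 genes in the table of TFAP2C KD and 9 of 23393 in that of SAE2 kd. Each was found in both tables and passed the filter on low counts in both. All 8 libraries came from cells that stably carried an inducible Tet-On shSAE2 cassette, an shRNA against SAE2, whose gene is UBA2, the catalytic subunit of the SUMO activating enzyme. In the first experiment, 2 libraries came from cells given control siRNA and 2 from cells given TFAP2C siRNA for 48 hrs (TFAP2C KD). In the second, 2 control libraries came from cells labelled as given DMSO for 5 days, which the methods describe as cells without Dox, and 2 libraries labelled SAE2 kd from cells given 1 μg/mL of doxycycline for 5 days. Doxycycline was given only to the libraries labelled SAE2 kd, so an effect of the drug cannot be told apart from that of the knockdown. TFAP2C is an AP-2 transcription factor. The sources used here do not say whether the shSAE2 line is 1 clone or whether replicates came from separate cultures, so the p-values measure the spread between these libraries, which may be technical.

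Cells make serine from 3-phosphoglycerate, an intermediate of glycolysis, in sequential steps carried out by PHGDH, PSAT1 and PSPH. Serine hydroxymethyltransferases then pass a carbon of serine to tetrahydrofolate and release glycine. This happens in the cytosol through SHMT1 and in mitochondria through SHMT2. In the cytosol, the trifunctional enzyme MTHFD1 interconverts the folate-bound carbon units. In mitochondria, MTHFD2 oxidises the unit, MTHFD1L releases it as formate, and ALDH1L2 oxidises formyl-tetrahydrofolate to carbon dioxide. Formate from mitochondria supplies the cytosolic synthesis of purines and thymidylate. Proliferating tumour cells are known for high levels of the mitochondrial arm, and ATF4, a transcription factor of the amino acid and stress response, is a known activator of many of these genes.

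Since members of the group moved together in the libraries labelled SAE2 kd, the sequence before the gene start is shown for the 3 with the largest rises and for SHMT1, a cytosolic enzyme that did not pass the test. The sequences are the 250 bases upstream of the start in RefSeq on GRCh38.p14, on the strand of the gene. They lie at chr1:119711684-119711933 for PHGDH, chr9:78296875-78297124 for PSAT1 and chr2:74198365-74198614 for MTHFD2 on the plus strand, and at chr17:18363551-18363800 for SHMT1 on the minus strand. For MTHFD1L (chr6:150866341-150866370) and MTHFD1 (chr14:64388323-64388352), both on the plus strand, 30 bases that hold matches are shown. Capitals mark matches to 3 motifs.
PHGDH: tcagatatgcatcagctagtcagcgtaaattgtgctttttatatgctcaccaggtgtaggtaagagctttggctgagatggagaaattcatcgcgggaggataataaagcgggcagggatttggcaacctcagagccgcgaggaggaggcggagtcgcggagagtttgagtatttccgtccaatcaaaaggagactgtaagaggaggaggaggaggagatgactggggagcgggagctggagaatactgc
PSAT1: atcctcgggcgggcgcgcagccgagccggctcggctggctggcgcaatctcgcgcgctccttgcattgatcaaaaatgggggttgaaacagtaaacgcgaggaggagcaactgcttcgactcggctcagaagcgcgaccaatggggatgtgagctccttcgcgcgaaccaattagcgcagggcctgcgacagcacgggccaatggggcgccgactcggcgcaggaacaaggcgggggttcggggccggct
MTHFD2: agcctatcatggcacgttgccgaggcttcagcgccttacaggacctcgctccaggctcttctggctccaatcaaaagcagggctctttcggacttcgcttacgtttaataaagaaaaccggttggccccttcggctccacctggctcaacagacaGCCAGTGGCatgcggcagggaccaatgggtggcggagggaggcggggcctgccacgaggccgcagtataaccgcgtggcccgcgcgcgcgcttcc
SHMT1: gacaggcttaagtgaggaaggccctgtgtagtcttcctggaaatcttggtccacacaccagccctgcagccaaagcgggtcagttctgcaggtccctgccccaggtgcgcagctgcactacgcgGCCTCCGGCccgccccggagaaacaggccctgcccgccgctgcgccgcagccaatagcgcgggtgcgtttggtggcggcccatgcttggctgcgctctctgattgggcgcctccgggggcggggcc
MTHFD1L: agccgGCCGCCGGCtcTGATGCAAtcgcgc
MTHFD1: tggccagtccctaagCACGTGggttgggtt

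The motifs were searched on both strands. They were TGATGNAA, the core of the element bound by ATF4 with C/EBP factors, GCCNNNGGC, bound by AP-2 factors, and CACGTG, the E-box bound by MYC with MAX. Upstream windows were at hand for 6 of the 9 genes, and PSPH, SHMT2 and ALDH1L2 were not matched. The ATF4 element was found in 1 of the 6, MTHFD1L, and in 3.89% of the 27305 genes with a window. The AP-2 motif was found in 3 of the 6, SHMT1, MTHFD2 and MTHFD1L, and in 23.0% of all genes. The E-box was found in 2 of the 6, MTHFD1 and MTHFD1L, and in 7.73% of all genes. A gene counted if any of its windows held the motif, and the 6 genes had 9 windows. By window, matches were in 2, 4 and 3 of the 9 for the ATF4 element, AP-2 motif and E-box. Of all 35116 windows, 3.14%, 19.8% and 6.34% held them. Of the 4 windows of MTHFD1L, from different starts, 2 held every motif. These 2 windows overlap and hold the same set of sites, and within that set the motifs did not overlap each other. PHGDH and PSAT1 held none of these letters in this window. A match is a description of sequence, not of binding.

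Total counts per library ranged from 18213739 to 24465109, and 14991 genes were tested in TFAP2C KD and 13381 in SAE2 kd. TFAP2C mRNA had 18.9 and 20.5 CPM (counts relative to library sizes that edgeR scaled with TMM) with control siRNA and 3.46 and 4.30 CPM in TFAP2C KD, a log2 fold change of -2.34 (edgeR adjusted p = 7.67e-06). UBA2 mRNA had 162 and 146 CPM in the control libraries and 147 and 153 CPM in the libraries labelled SAE2 kd. Its log2 fold change was -0.036 (95% interval -0.15 to 0.078, edgeR adjusted p = 0.766), so the mRNA did not show the labelled knockdown, and every direction below is that of the labels. Uba2 protein, on which the study assessed the knockdown, is not measured by these counts. The epithelial markers EPCAM, KRT8, KRT18, KRT19, CDH1 and CDX2 were counted in all libraries, VIL1 and CDX1 were at or near 0, and of the fibroblast and leukocyte markers only COL1A1 reached 1 CPM. EPCAM, KRT8 and KRT18 rose by 0.15, 0.18 and 0.25 on the log2 scale in the libraries labelled SAE2 kd (edgeR adjusted p = 0.0414, 0.00405 and 7.79e-05), and their part in the results was not tested. In bulk RNA, a change in the share of cells cannot be told apart from a change in RNA per cell. The replicates of TFAP2C KD differed more than those of other groups, with a chi-square of 9.07 per degree of freedom against 2.56 to 2.75 in the other 3 groups.

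In the libraries labelled SAE2 kd, 6 of the 9 enzymes rose and 0 fell at an adjusted p under 0.05, where 9.98% of all genes tested were called, 5.52% higher and 4.47% lower. The genes that rose were all 3 of serine synthesis and 3 of the 4 mitochondrial enzymes, and neither cytosolic folate enzyme passed. The members that did not pass were SHMT1, MTHFD1 and ALDH1L2. The median log2 fold change of the 9 was 0.24, against -0.00042 over all genes tested. For 7 of the 9 the groups did not overlap, where this held for 51.3% of all genes. With the Wald test of DESeq2, 4 rose and 0 fell, and ALDH1L2 was given no adjusted p. No member was called lower by either tool, or at an unadjusted p under 0.05 in edgeR.

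**Figure D1:**
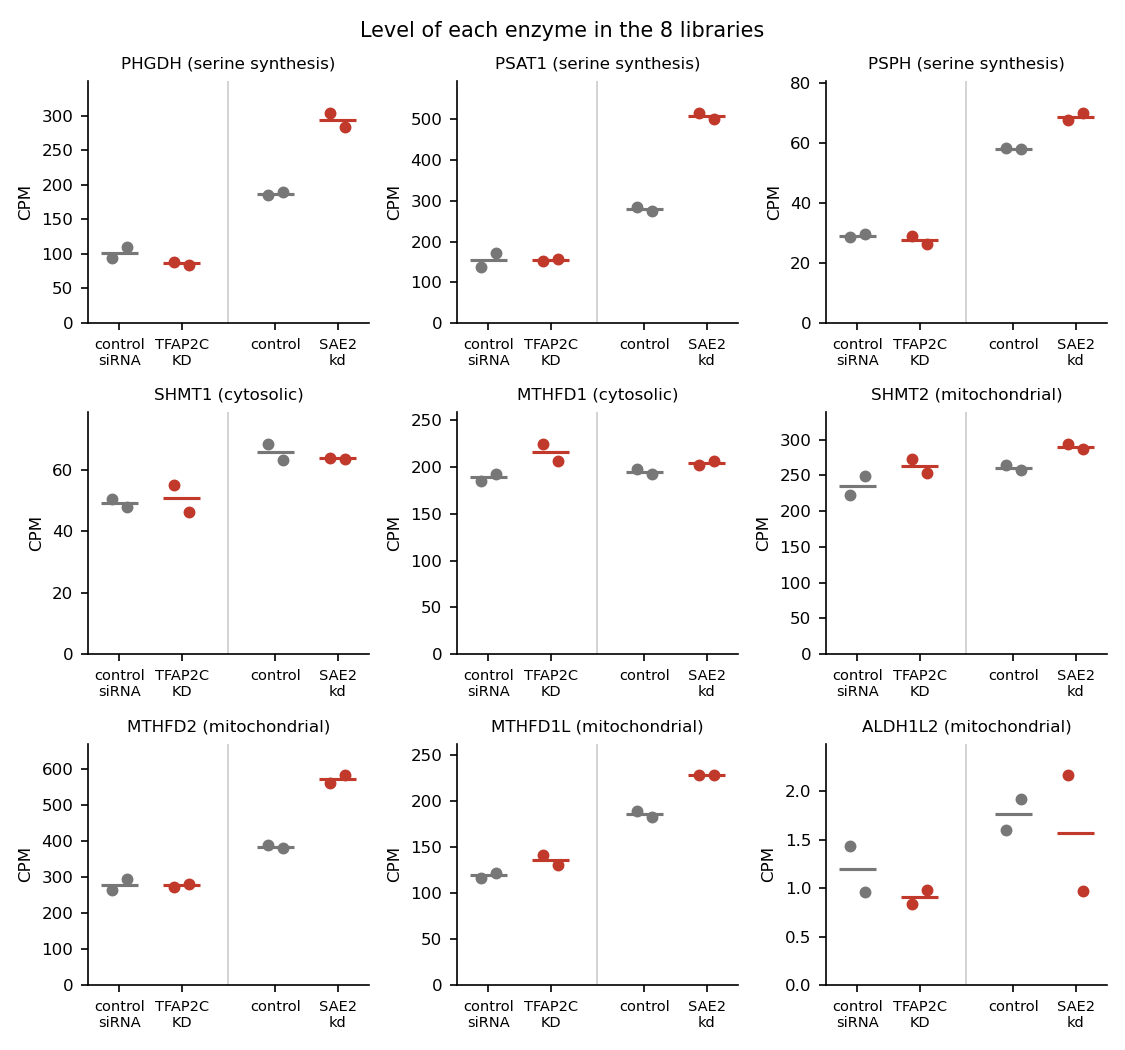
Level of each of the 9 enzymes in CPM (y axis, from 0) in each of the 8 libraries, with 1 point per library and a line at the group mean, controls in grey and knockdowns in red. In the libraries labelled SAE2 kd, PHGDH, PSAT1 and MTHFD2 lie well above both controls, and the 2 points of each group lie close together.

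PSAT1, the aminotransferase of the second step of serine synthesis, changed most. It had 286 and 275 CPM in the control libraries and 516 and 501 CPM in the libraries labelled SAE2 kd. Both knockdown libraries lay far above both controls, and replicates of a group were alike. The log2 fold change was 0.86 (SE 0.046, edgeR adjusted p = 2.39e-15), a rise of 81.2% and the rank 50 from the top among 13381 genes. PSAT1 lies on chromosome 9 from 80912059 to 80945009 on hg19, the build of this table.

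PHGDH, the dehydrogenase that commits 3-phosphoglycerate to serine, had 186 and 189 CPM in the controls and 304 and 284 CPM in the libraries labelled SAE2 kd. The groups were widely apart again. Its log2 fold change was 0.65 (SE 0.050, edgeR adjusted p = 1.50e-11), with a 95% interval from 0.55 to 0.75 that lay below that of PSAT1, from 0.76 to 0.95. PHGDH lies on chromosome 1 from 120254419 to 120286849.

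PSPH, the phosphatase of the last step, moved least of the 3. It had 58.3 and 57.9 CPM in the controls and 67.5 and 69.9 CPM in the libraries labelled SAE2 kd, without overlap. The log2 fold change was 0.24 (SE 0.063, edgeR adjusted p = 0.0102). This call was lost in 4 of 11 alternatives: with DESeq2 (adjusted p = 0.0562), with all 8 libraries in one fit (edgeR adjusted p = 0.0542), without control replicate 2 (0.24, edgeR adjusted p = 0.0762) and without SAE2 kd replicate 2 (0.22, edgeR adjusted p = 0.0509). The row of PSPH on chromosome 7, from 56078744 to 56184090, overlaps CCT6A with 12326 to 14439 counts and SUMF2 with 3226 to 3982, on the opposite strand. It also overlaps CHCHD2 with 1576 to 1770 counts and PHKG1 with 28 to 32, on the same strand. The strand setting of the counting is not given in the sources used here.

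Of the mitochondrial enzymes, MTHFD2, which oxidises the folate-bound carbon, rose furthest. It had 388 and 380 CPM in the controls and 560 and 583 CPM in the libraries labelled SAE2 kd. The difference between the groups was many times that between replicates, with a log2 fold change of 0.57 (SE 0.044, edgeR adjusted p = 1.49e-11). Its 95% interval, from 0.48 to 0.66, overlapped that of PHGDH. MTHFD2 lies on chromosome 2 from 74425690 to 74442424, and a row named as its copy, MTHFD2P1, held 0 to 5 counts.

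MTHFD1L, which releases formate in mitochondria, had 189 and 182 CPM in the controls and 228 and 228 CPM in the libraries labelled SAE2 kd. Its groups were also apart, by less than those of MTHFD2. The log2 fold change was 0.30 (SE 0.050, edgeR adjusted p = 7.38e-05). PHGDH, PSAT1, MTHFD2 and MTHFD1L kept their direction and their adjusted p under 0.05 in each of the 11 alternatives, among which were DESeq2 and the omission of each library.

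SHMT2, the mitochondrial serine hydroxymethyltransferase, had 264 and 258 CPM in the controls and 294 and 286 CPM in the libraries labelled SAE2 kd. The groups did not overlap, but the rise was small, with a log2 fold change of 0.15 (SE 0.047, edgeR adjusted p = 0.0338), or 11.2%. The call was lost in 6 of 11 alternatives. These were DESeq2 (adjusted p = 0.0659), library size in place of TMM (edgeR adjusted p = 0.0782) and all 8 libraries in one fit (edgeR adjusted p = 0.190). It was also lost without control replicate 1 (0.17, edgeR adjusted p = 0.0875), without control replicate 2 (0.14, edgeR adjusted p = 0.239) and without SAE2 kd replicate 1 (0.13, edgeR adjusted p = 0.134).

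ALDH1L2, the remaining mitochondrial enzyme, was barely counted. It held 30 and 40 counts in the controls and 39 and 18 in the libraries labelled SAE2 kd, or 1.60, 1.92, 2.17 and 0.967 CPM. The groups overlapped, and the 95% interval of its log2 fold change of -0.18, from -0.79 to 0.43, allowed changes in either direction as large as those of MTHFD1L (edgeR adjusted p = 0.780).

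Neither cytosolic folate enzyme passed the test. PHGDH, PSAT1 and PSPH, which rose, are cytosolic as well, so the contrast is one between folate enzymes only. SHMT1 had 68.5 and 63.1 CPM in the controls and 64.1 and 63.6 CPM in the libraries labelled SAE2 kd, with overlapping groups. Its log2 fold change was -0.043 (edgeR adjusted p = 0.759). The 95% interval from -0.17 to 0.088 lay below that of MTHFD1L, from 0.19 to 0.40, but overlapped that of SHMT2, from 0.056 to 0.25. MTHFD1 had 198 and 193 CPM in the controls and 202 and 206 CPM in the libraries labelled SAE2 kd. Its log2 fold change was 0.064 (95% interval -0.038 to 0.17, edgeR adjusted p = 0.494), and this interval also overlapped that of SHMT2. SHMT1 overlaps SMCR8, with 1132 to 1275 counts, and MTHFD1 overlaps ZBTB25, with 244 to 275, both on the opposite strand.

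**Figure D2:**
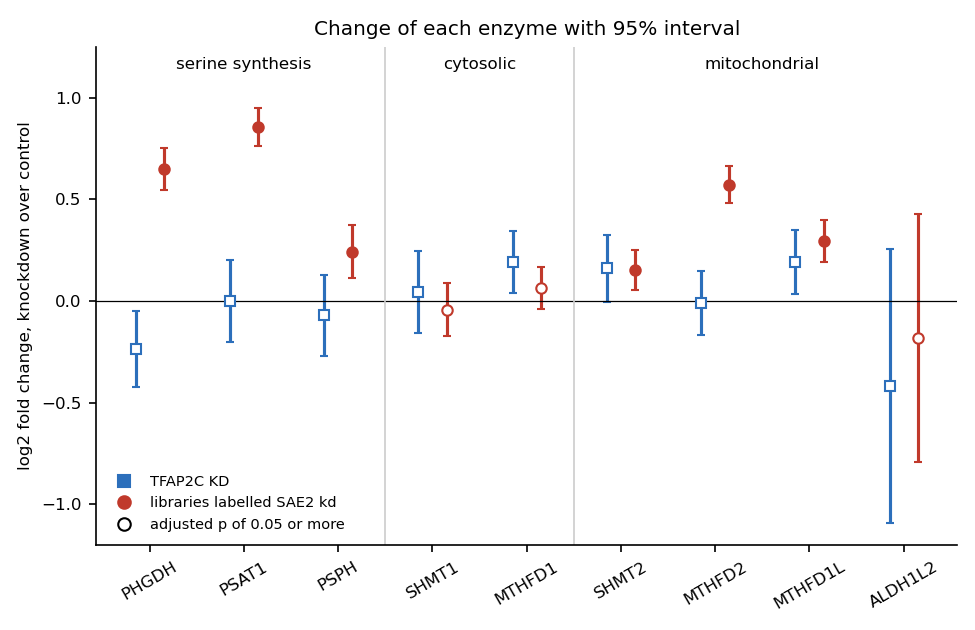
Log2 fold change of each enzyme, knockdown over control (y axis), with its 95% interval from edgeR's quasi-likelihood test, squares for TFAP2C KD and circles for the libraries labelled SAE2 kd. Filled symbols have an adjusted p under 0.05, which is the case for 6 circles and 0 squares.

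To compare the folate enzymes between compartments without dependence on library scaling, the log2 ratio of mitochondrial to cytosolic counts was taken within each library. The serine synthesis enzymes, also cytosolic, were not part of it. The 4 mitochondrial enzymes together over SHMT1 and MTHFD1 gave 1.66 and 1.68 in the controls and 2.03 and 2.02 in the libraries labelled SAE2 kd. The ratio was thus higher in both knockdown libraries, by 0.35 on the log2 scale, while the SD between replicates was 0.014 and 0.0023. With 2 libraries per group the exact permutation test cannot go below p = 0.333, which is the value it gave (two-sided). With each enzyme given the same weight the difference was 0.18, since ALDH1L2 then counts as much as MTHFD2.

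The log2 ratio of SHMT2 over SHMT1, the serine hydroxymethyltransferases, was 1.95 and 2.03 in the controls and 2.20 and 2.17 in the libraries labelled SAE2 kd. On a linear scale, for each count of MTHFD1 there were 1.96 and 1.97 counts of MTHFD2 in the controls and 2.78 and 2.83 in the libraries labelled SAE2 kd. The log2 ratio of MTHFD1L over MTHFD1 went from -0.061 and -0.083 to 0.18 and 0.14. In each of these 3 pairs the groups were apart, with log2 differences of 0.20, 0.51 and 0.23, and each exact permutation test gave the smallest possible p = 0.333.

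**Figure D3:**
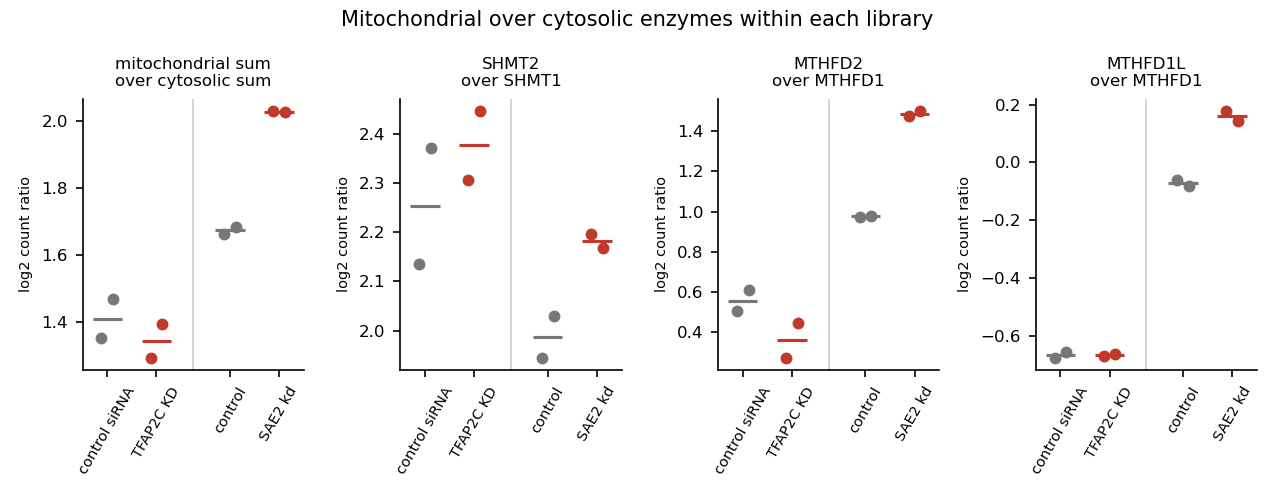
Log2 count ratio of mitochondrial over cytosolic folate enzymes within each library (y axis, which differs between panels and does not start at 0). There is 1 point per library and a line at the group mean. In the libraries labelled SAE2 kd both points lie above both controls in every panel, whereas the groups of TFAP2C KD overlap in 3 of 4 panels.

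In TFAP2C KD, 0 of the 9 enzymes passed the test in edgeR, where 0.740% of all genes were called, 0.260% higher and 0.480% lower. DESeq2 also called 0, with no adjusted p given for ALDH1L2. At an unadjusted p under 0.05 in edgeR, 2 were higher and 1 was lower. The median log2 fold change of the 9 was 0.00066, against -0.0038 over all genes. For 4 of the 9 the groups did not overlap, where this held for 44.7% of all genes. In a fit without 1 library of TFAP2C KD, the spread was taken from the control siRNA libraries alone. These differed less, with a chi-square of 2.64 per degree of freedom against 9.07 for TFAP2C KD. Without TFAP2C KD replicate 2, 3 members were called higher and 1 lower, and all genes called went from 111 to 2825. Without TFAP2C KD replicate 1, 1 was called lower, with 537 genes called in all.

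Within serine synthesis, PHGDH had 93.5 and 111 CPM with control siRNA and 88.2 and 84.6 CPM in TFAP2C KD. Both knockdown libraries lay below both controls, and the log2 fold change was -0.24 (SE 0.086, edgeR adjusted p = 0.274). The difference between the control libraries was 0.24 on the same scale, as large as the change itself. The log2 fold change of PHGDH was -0.27 without TFAP2C KD replicate 1 and -0.20 without replicate 2. It was -0.36 without control siRNA replicate 1 and -0.12 without control siRNA replicate 2. PSAT1 had 137 and 172 CPM with control siRNA and 153 and 156 CPM in TFAP2C KD, with the knockdown libraries between the controls. PSPH had 28.6 and 29.5 CPM with control siRNA and 29.1 and 26.2 CPM in TFAP2C KD, with overlap. The 95% interval of the log2 fold change of PSAT1 was -0.20 to 0.20, below that in the libraries labelled SAE2 kd, 0.76 to 0.95. For PSPH it was -0.27 to 0.13, which overlapped that in the libraries labelled SAE2 kd, 0.11 to 0.37.

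Among the folate enzymes of both compartments, MTHFD1, MTHFD1L and SHMT2 had the highest log2 fold changes in TFAP2C KD, and none passed. MTHFD1 had 185 and 192 CPM with control siRNA and 225 and 207 CPM in TFAP2C KD, with a log2 fold change of 0.19 (SE 0.070, edgeR adjusted p = 0.279). MTHFD1L had 116 and 122 CPM with control siRNA and 141 and 130 CPM in TFAP2C KD, a log2 fold change of 0.19 as well (SE 0.072, edgeR adjusted p = 0.302). SHMT2 had 223 and 249 CPM with control siRNA and 273 and 253 CPM in TFAP2C KD, with a log2 fold change of 0.16 (SE 0.075, edgeR adjusted p = 0.402). In these 3, replicate 1 of TFAP2C KD was the highest library. Without replicate 2 the log2 fold changes were 0.25, 0.25 and 0.22, and without replicate 1 they were 0.13, 0.13 and 0.11. With 1 TFAP2C KD library left, the spread was that of the control siRNA libraries, so no call is drawn from these fits. SHMT2 was at 0.083 without control siRNA replicate 1.

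For the other folate enzymes the groups overlapped. MTHFD2 had 263 and 293 CPM with control siRNA and 272 and 281 CPM in TFAP2C KD, SHMT1 had 50.7 and 48.0 CPM with control siRNA and 55.2 and 46.4 CPM in TFAP2C KD, and ALDH1L2 had 20 to 35 counts in the 4 libraries. The log2 ratio of mitochondrial to cytosolic counts was 1.35 and 1.47 with control siRNA and 1.30 and 1.40 in TFAP2C KD, with a difference of -0.065 that was smaller than the difference between the control libraries (p = 0.667, exact permutation test). The log2 ratio of MTHFD2 over MTHFD1 was 0.51 and 0.61 with control siRNA and 0.27 and 0.45 in TFAP2C KD. It was the only one of the 4 ratios whose groups did not overlap in this experiment, and it lay lower in TFAP2C KD (p = 0.333, exact permutation test, the smallest possible).

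A joint model of both experiments, over the 13179 genes tested in it, asked whether the log2 fold change of TFAP2C KD differed from that of the libraries labelled SAE2 kd. Negative values mean a lower log2 fold change in TFAP2C KD. The controls are not shared. The difference passed for 3 of the 9 enzymes, where 2.37% of all genes passed. All 3 were lower in TFAP2C KD, as were 1.47% of all genes, and 0 were higher, against 0.903% of all genes. It was -0.90 for PHGDH (SE 0.10, edgeR adjusted p = 0.000167), -0.87 for PSAT1 (SE 0.11, edgeR adjusted p = 0.000471) and -0.59 for MTHFD2 (SE 0.084, edgeR adjusted p = 0.00105). Each of the 3 passed in all 13 alternatives of this fit. PSPH had a difference of -0.33 (edgeR adjusted p = 0.133), MTHFD1L of -0.12 (95% interval -0.30 to 0.060) and SHMT2 of -0.0054 (95% interval -0.19 to 0.18). The experiments were counted on different gene annotations and differ in the delivery and duration of the knockdown. They also differ in doxycycline, given only to the libraries labelled SAE2 kd. None of these can be told apart here from the gene targeted.

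Levels were compared between genes as RPKM, here the CPM divided by the length in kb that each table gives. In the controls of the SAE2 kd experiment, MTHFD2 was highest with 169 ± 2.40 RPKM (SD, n = 2), followed by PSAT1 with 129 ± 3.38, SHMT2 with 91.1 ± 1.53, MTHFD1 with 54.2 ± 0.946, PHGDH with 45.8 ± 0.581 and MTHFD1L with 32.7 ± 0.919. PSPH with 17.9 ± 0.0862 and SHMT1 with 17.3 ± 0.997 did not differ beyond their spread, and ALDH1L2 was last with 0.216 ± 0.0272. The mitochondrial member of each pair thus stood above the cytosolic one for SHMT2 over SHMT1 and for MTHFD2 over MTHFD1, but not for MTHFD1L.

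With control siRNA, PSAT1 at 70.4 ± 11.1, MTHFD2 at 57.8 ± 4.43 and SHMT2 at 51.4 ± 3.99 RPKM (SD, n = 2) were again the highest. The ranges of mean ± SD of neighbours among them overlapped. The order below them depends on lengths that differ between the tables, such as 12.2 kb here against 3.60 kb for MTHFD1 and 87.9 kb against 8.17 kb for ALDH1L2. With the lengths here, MTHFD1L at 23.9 ± 0.833 RPKM stood above MTHFD1 at 15.5 ± 0.399, not below it. Levels per length were therefore not compared between the experiments.

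Genes around these enzymes were followed in 6 lists of 70 genes in all. In the libraries labelled SAE2 kd, 16 of 62 tested genes of these lists were higher and 2 lower, where 5.52% of all genes were higher and 4.47% lower, and DESeq2 called 13 higher and 0 lower. In TFAP2C KD, 0 of 64 passed in edgeR or DESeq2, where 0.740% of all genes passed in edgeR, and at an unadjusted p under 0.05 in edgeR 6 were higher and 3 lower. With library size in place of TMM, all genes called in SAE2 kd split into 588 higher and 805 lower, against 738 and 598, and the median of all genes moved to -0.026.

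Of 8 genes listed as known regulators of these enzymes, 7 rose in the libraries labelled SAE2 kd and ATF5 did not pass. Of all genes, 5.52% were called higher. The list also holds TRIB3, itself a target of ATF4, so the 7 are not independent of each other. The median log2 fold change was 0.60, against -0.00042 over all genes. ATF4 had 217 and 227 CPM in the controls and 368 and 359 CPM in the libraries labelled SAE2 kd, a log2 fold change of 0.71 (SE 0.048, edgeR adjusted p = 6.82e-13). TRIB3, a pseudokinase that ATF4 induces, rose by 1.35 on the log2 scale (edgeR adjusted p = 5.46e-17), and DDIT3, a stress transcription factor, by 1.34 (edgeR adjusted p = 8.53e-13). CEBPB, a C/EBP factor, rose by 0.71 (edgeR adjusted p = 1.73e-10) and MYC by 0.23 (edgeR adjusted p = 0.000895). In TFAP2C KD, ATF4 had 228 and 253 CPM with control siRNA and 238 and 240 CPM, with a log2 fold change of -0.0096 (edgeR adjusted p = 0.972). MYC had a log2 fold change of 0.22 there (edgeR adjusted p = 0.215).

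In serine and glycine transport and use, 4 of 14 genes tested rose in the libraries labelled SAE2 kd, where 5.52% of all genes did, and 0 fell. The median was 0.057. The plasma membrane transporters SLC1A4 and SLC1A5, which carry small neutral amino acids, rose by 1.07 (edgeR adjusted p = 2.34e-10) and 0.59 (edgeR adjusted p = 1.24e-11) on the log2 scale. The glycine transporter SLC6A9 rose by 0.97 (edgeR adjusted p = 3.05e-08) and SARS1, the cytosolic seryl-tRNA synthetase, by 0.67 (edgeR adjusted p = 2.47e-12). SARS2 and SFXN1, the mitochondrial seryl-tRNA synthetase and a mitochondrial serine carrier, had log2 fold changes of -0.022 and -0.080 and did not pass (adjusted p = 0.890 and edgeR adjusted p = 0.340). They are named here after their values were seen.

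Of 20 other folate-cycle genes tested, 3 rose in the libraries labelled SAE2 kd and 0 fell, where 5.52% of all genes were called higher and 4.47% lower. The median was -0.00082, with 10 of the 20 above 0. They were MTRR, which reactivates methionine synthase, at 0.23 (edgeR adjusted p = 0.0242), DMGDH, a mitochondrial dimethylglycine dehydrogenase, at 1.00 (edgeR adjusted p = 0.0337) and AMT, of the glycine cleavage system, at 0.57 (edgeR adjusted p = 0.0450). DMGDH had at most 38 counts and AMT at most 91. With DESeq2 the count was 0, without control replicate 1 it was 1 and without SAE2 kd replicate 2 it was 0.

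In purine synthesis, 1 of 11 genes was called, or 9.09%, near the 9.98% of all genes. It was GART, a trifunctional enzyme that uses formyl-tetrahydrofolate, which was higher by 0.25 on the log2 scale (edgeR adjusted p = 0.000125). In the methionine cycle, MAT2A, which makes S-adenosylmethionine, rose by 0.17 (edgeR adjusted p = 0.0110) and MTAP, of methionine salvage, fell by 0.15 (edgeR adjusted p = 0.0385), of 5 tested. Of 4 glycolytic genes around 3-phosphoglycerate, PGK1, which makes that intermediate, fell by 0.15 (edgeR adjusted p = 0.0315) and the other 3 did not pass. The calls of MTAP and PGK1 were not made by DESeq2. Without a library, the count of the methionine cycle was 1 without control replicate 1, 0 without control replicate 2 and 1 without SAE2 kd replicate 1, and PGK1 was lost without each of these.

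**Figure D4:**
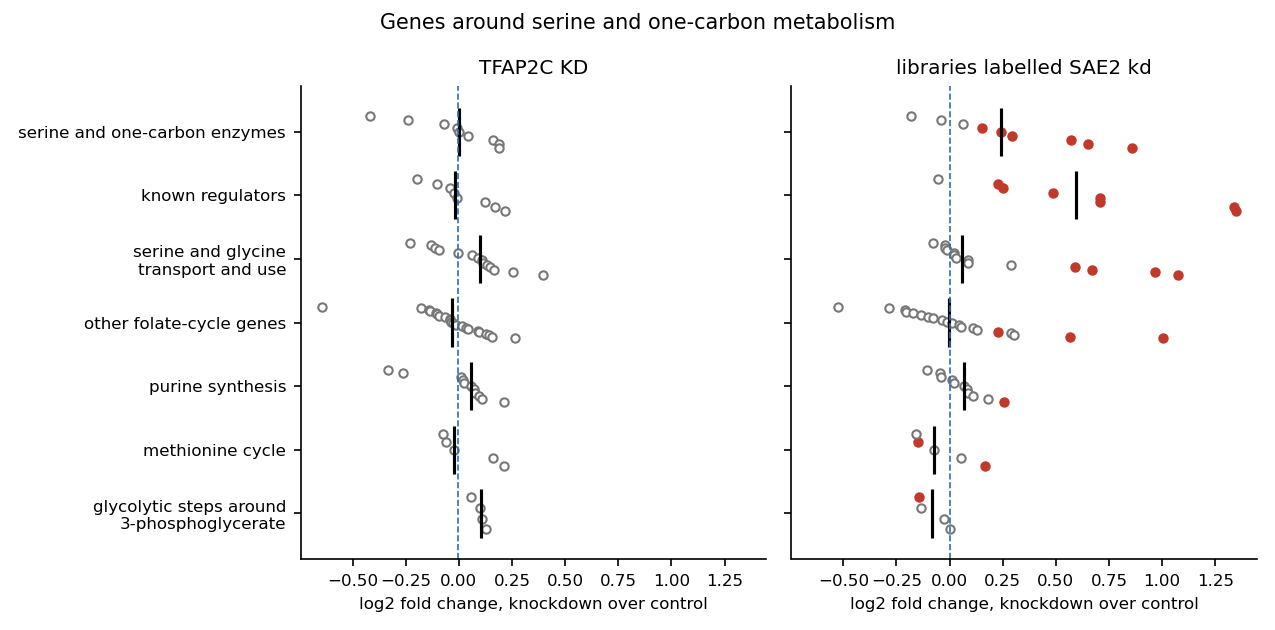
Log2 fold change, knockdown over control (x axis), of each tested gene of the 9 enzymes and of the 6 lists around them, with red points for an adjusted p under 0.05, a black bar at the median of the list and a dashed line at the median of all genes. In the libraries labelled SAE2 kd, the medians of the enzymes and of the genes listed as known regulators lie at 0.24 and 0.60. That of the other folate-cycle genes lies at -0.00082.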

How the data were processed

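The authors sequenced 51 nt single-end mRNA libraries, aligned the reads to hg19 with TopHat2 and counted them on RefSeq genes with HTSeq 0.9.1 (submitters' processing notes and methods), and deposited raw read counts per gene. The gene positions in the table of TFAP2C KD are those of GRCh38, unlike the methods, so the tables were fitted apart for each experiment's own test. The joint model and the alternative with all 8 libraries in one fit instead combined them over the 21257 symbols found in both. All count columns were used (0 left out). The RPKM that the methods describe were not used here.

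Low counts were removed by filterByExpr, and tests were those of edgeR 4.0.16 in R 4.3.3 (TMM, quasi-likelihood, Benjamini-Hochberg over all genes tested, two-sided), with no replicate term. SE is the log2 fold change over the root of F. Log2 ratios used a prior count of 0.5. The enzymes and lists were chosen with earlier results of these data known. The genes named are the 9 enzymes, the targeted genes, ATF4, MYC and up to 4 called genes per list by adjusted p. Alternatives were DESeq2 1.42.0, other scalings, filters and fits and the omission of each library. The code was tested on simulated data. Motifs were matched to upstream sequences from RefSeq.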

Additional observations from a re-analysis of the deposited data

Results flagged for a closer look

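The change of 3 enzymes differed between the experiments by a test of the difference itself. On the scale of TFAP2C KD minus the libraries labelled SAE2 kd, it was -0.90 for PHGDH, -0.87 for PSAT1 and -0.59 for MTHFD2 in log2 units (adjusted p = 0.000167, 0.000471 and 0.00105, edgeR). In the libraries labelled SAE2 kd both values of each gene lay above both controls. In TFAP2C KD both values of PHGDH lay below both controls, and those of PSAT1 and MTHFD2 between them.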

How the results depend on the processing

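Each enzyme's call in the libraries labelled SAE2 kd was the same in 87 of 99 combinations of enzyme and alternative, was lost in 10, all of PSPH or SHMT2, and changed sign in 2. For the 10 the cause was not tested, and ALDH1L2, without an adjusted p in DESeq2, was counted there as not called. In TFAP2C KD, the genes called went from 111 to 398 with no filter, 271 with all 8 libraries in one fit and 49 to 2825 without 1 library, with 0 to 4 of the enzymes. In SAE2 kd they went from 1336 to 665 with the DESeq2 Wald test, 696 with all 8 libraries in one fit and 833 to 1271 without 1 library. For the difference they went from 313 to 607 with no filter and 113 to 1554 without 1 library. Signs changed for values whose 95% interval included 0. PSAT1 in TFAP2C KD, 0.00066, gave -0.027 with library size only, -0.0010 with at least 10 counts in every library and -0.0088 with all 8 libraries in one fit. The difference of SHMT2, -0.0054, gave 0.00081 with DESeq2 size factors, 0.0057 with library size only, 0.0015 with at least 10 counts and 0.0047 with no filter. Without 1 library, values in TFAP2C KD ran from -0.15 to 0.16 for PSAT1, -0.15 to 0.0037 for PSPH, -0.088 to 0.16 for SHMT1 and -0.086 to 0.062 for MTHFD2. In SAE2 kd they ran from -0.10 to 0.017 for SHMT1 and -0.87 to 0.29 for ALDH1L2, and for the difference from -0.036 to 0.18 for SHMT1, -0.080 to 0.092 for SHMT2 and -0.72 to 0.44 for ALDH1L2. The mitochondrial over cytosolic log2 ratio in SAE2 kd, 0.35, gave 0.18 as a mean of log2 CPM per enzyme. Where 1 library was left out, the lone sample was assumed to vary like the other group. The labels give the replicates numbers but no pairing, and deviations of same-numbered libraries had correlations of -0.24 in TFAP2C KD and -0.034 in SAE2 kd. With a replicate block, 172 genes were called in TFAP2C KD and 173 for the difference, and the enzymes called stayed at 0 in TFAP2C KD, 6 in SAE2 kd and 3 for the difference. Counts of 18 to 40 limit what can be said of ALDH1L2.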

Other observations

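CBS, which condenses serine with homocysteine, was listed at 0 counts in all 4 libraries of the TFAP2C KD experiment and had at most 3 counts in any library of the SAE2 kd experiment. Whether these counts reflect expression or reads lost in alignment and counting was not tested. MTHFD2L, a paralogue of MTHFD2, stood at 17.4 and 17.7 CPM in the controls of the SAE2 kd experiment, against 17.0 and 20.9 CPM in the libraries labelled SAE2 kd (edgeR adjusted p = 0.572). Both genes were chosen after their values were seen.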
